A study of Mus musculus with 14 samples.

Results

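The regions described here are the stretches of the mouse genome at which trimethylation of histone H3 at lysine 27 (H3K27me3) was listed by the authors as different between sham-operated hearts and hearts under aortic constriction. All lines of the authors' deposited table for this antibody on chromosomes 1 to 19, X and Y were taken, which gave 552542 regions of the 1186054 that the tables of the series hold for 3 antibodies. A region was listed because it differed, so the presence of a difference is what chose it and is no result of its own. Genome sequence without a listed region is sequence without a listed difference, and may carry the mark or lack it.

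The cells were cardiomyocyte-enriched cells of C57BL/6J mice, taken from sham-operated animals, whose treatment label reads as none, or from animals 1 week after transverse aortic constriction (TAC), an operation that narrows the aorta and loads the left ventricle with pressure. Chromatin was immunoprecipitated with the Millipore antibody 07-449 against H3K27me3 and sequenced, with 2 libraries per condition, labelled as replicates. The series has 14 libraries in all, and its other antibodies recognise G9a and H3K9me2. The sources used here give no sex, age or number of hearts per library, and cells other than cardiomyocytes can be present in an enriched preparation. The authors' deposited table gives 4 values per region, as a first pair and a second pair of libraries, without naming the pair that is sham. Every difference below is therefore given as higher in the first or in the second pair, and no direction is assigned to constriction.

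H3K27me3 is written by Polycomb repressive complex 2, whose catalytic subunits are Ezh1 and Ezh2, and is bound by the Cbx subunits of Polycomb repressive complex 1, which ubiquitylates histone H2A and compacts chromatin. The mark covers developmental regulators and genes of other lineages that a differentiated cell keeps silent, often as broad domains over CpG-rich starts, and it is removed by the demethylases Kdm6a and Kdm6b. In the adult cardiomyocyte, genes of the contractile apparatus are active and are not typical carriers of the mark.

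Promoters of 5 genes are shown because a listed region covers each gene's start and because they span a wide range of CpG content. Each is the 250 bases before the start, 5′ to 3′ on the gene's strand, from RefSeq on GRCm38.p6 (mm10), with every CG in capitals. The LIM-homeodomain regulator Isl1 (chr13:116309689-116309938, minus strand) has 33 CG, the adrenergic receptor gene Adra2b (chr2:127362929-127363178, plus strand) 23 and the endothelial receptor gene Tie1 (chr4:118489850-118490099, minus strand) 6, all under regions higher in the second pair. The Polycomb subunit gene Phc1 (chr6:122340228-122340477, minus strand) has 8 CG and the endothelial gene Emcn (chr3:137340828-137341077, plus strand) 1, both under regions higher in the first pair. CG reads the same on both strands. It occurs at least once in 93.4% of the 21263 such windows of protein-coding genes, with a median of 10 per window. Windows of starts under second-pair regions had a median of 7 and an upper quartile of 15. Isl1 and Adra2b lie above that quartile and are not typical of second-pair regions. Isl1, Tie1, Phc1, Emcn and Adra2b were picked for display after their values were seen.
Isl1: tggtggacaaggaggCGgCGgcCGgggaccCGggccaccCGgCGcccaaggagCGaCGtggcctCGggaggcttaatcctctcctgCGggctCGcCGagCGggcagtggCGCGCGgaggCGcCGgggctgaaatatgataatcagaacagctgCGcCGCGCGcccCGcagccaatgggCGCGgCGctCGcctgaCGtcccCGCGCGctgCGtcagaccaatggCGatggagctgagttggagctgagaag
Adra2b: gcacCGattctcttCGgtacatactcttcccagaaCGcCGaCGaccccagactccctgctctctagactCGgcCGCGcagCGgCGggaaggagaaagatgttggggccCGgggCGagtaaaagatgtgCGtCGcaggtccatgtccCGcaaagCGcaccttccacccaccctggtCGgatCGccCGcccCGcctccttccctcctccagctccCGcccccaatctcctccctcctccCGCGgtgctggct
Tie1: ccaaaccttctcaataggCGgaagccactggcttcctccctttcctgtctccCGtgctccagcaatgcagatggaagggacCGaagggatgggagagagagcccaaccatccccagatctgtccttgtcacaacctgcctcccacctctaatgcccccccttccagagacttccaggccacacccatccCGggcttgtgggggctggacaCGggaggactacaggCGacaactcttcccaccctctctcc
Phc1: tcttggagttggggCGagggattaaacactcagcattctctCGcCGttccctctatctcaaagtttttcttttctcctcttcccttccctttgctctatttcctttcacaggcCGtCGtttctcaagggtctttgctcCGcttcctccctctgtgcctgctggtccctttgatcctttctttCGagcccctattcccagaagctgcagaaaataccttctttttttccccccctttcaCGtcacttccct
Emcn: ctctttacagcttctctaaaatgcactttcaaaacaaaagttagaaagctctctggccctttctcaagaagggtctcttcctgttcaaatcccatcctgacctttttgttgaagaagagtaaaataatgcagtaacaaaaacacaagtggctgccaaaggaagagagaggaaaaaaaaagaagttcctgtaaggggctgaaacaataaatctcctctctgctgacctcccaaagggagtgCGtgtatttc

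Over these starts the 4 libraries separated by pair. The region over the Isl1 start (chromosome 13, 116300951 to 116310100) had 4671 and 4030 in the first-pair libraries and 7615 and 6368 in the second-pair ones by the authors' deposited table. That over the Adra2b start (chromosome 2, 127353251 to 127369400) had 5872 and 4829 versus 9623 and 9257 by the authors' deposited table. At the Tie1 start (chromosome 4, 118484051 to 118491400) the authors' deposited table had 1713 and 2439 against 3122 and 2854. In these 3 regions both second-pair libraries exceeded both first-pair libraries, with log2 differences of 0.68, 0.82 and 0.53. Such a difference is the log2 ratio of second-pair to first-pair mean after adding 1 to each, calculated for this text and no value of the authors. At the Phc1 start (chromosome 6, 122339851 to 122340950) the authors' deposited table had 309 and 291 in first-pair and 47 and 62 in second-pair libraries, a log2 difference of -2.44. At the Emcn start (chromosome 3, 137340201 to 137341650) it was -0.67, from 424 and 364 versus 228 and 267 by the authors' deposited table. The 3 regions of the second pair spanned 9150, 16150 and 7350 bp, and those of Phc1 and Emcn 1100 and 1450 bp.

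Of the 552542 regions, 235894 (42.7%) were higher in the second pair and 316648 in the first. The split is a description, since the authors selected the regions. The second-pair regions were fewer but covered more sequence, 327 Mb against 265 Mb, and their median width was 900 bp against 750 bp. Their median log2 difference was 0.84, and that of first-pair regions -0.98. Differences beyond a log2 value of 1 made up 32.2% of second-pair and 48.5% of first-pair regions. Both libraries of the higher pair exceeded both of the other in 69.2% of all regions, in 71.4% of those higher in the second pair and in 67.6% of those higher in the first. The whole list thus held many small regions with large fold differences in the first pair, and wider regions with moderate differences in the second. A pair was listed at 0 in 483 first-pair and 27 second-pair regions, for which no fold is given.

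Width separated the directions. Among regions under 500 bp, 32.9% were higher in the second pair, and among those of 2 to 5 kb 79.5% were. From 5 kb up the split was nearly complete: 7221 of 7247 regions (99.6%) were higher in the second pair, and so were all 124 regions of 20 kb and more. These wide regions had a narrow range of differences, with a median log2 value of 0.76 and a 10th to 90th percentile of 0.56 to 1.01. The pairs did not overlap in 99.3% of them. How the authors' caller set a region's edges is not stated.

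**Figure D1:**
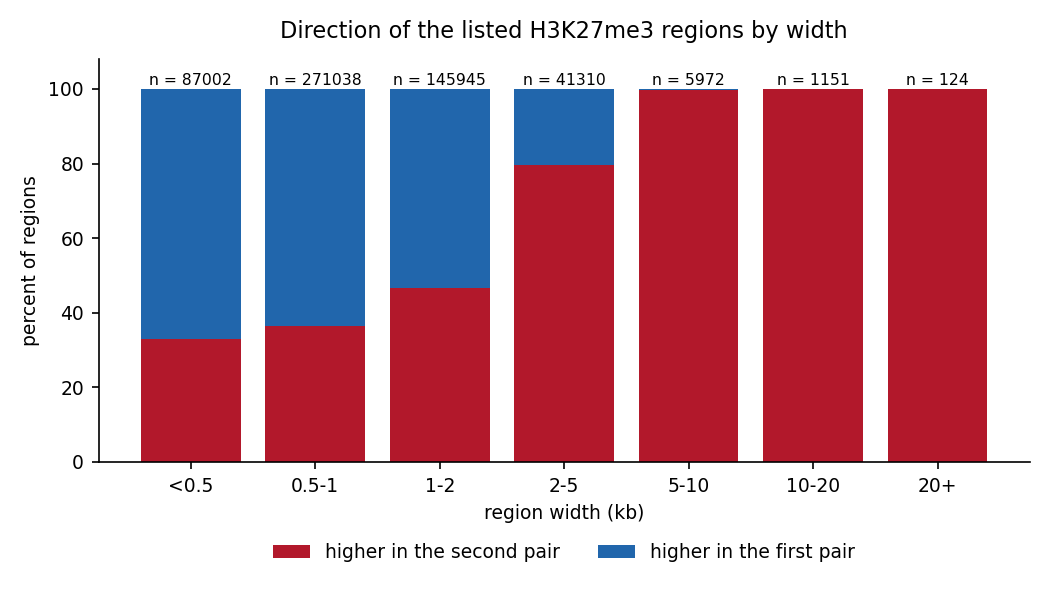
Percent of listed H3K27me3 regions higher in the second pair (red) and in the first pair (blue) by region width in kb, with the number of regions above each bar. The red share grows from 32.9% under 0.5 kb to all 124 regions of 20 kb and more.

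The same gradient ran with signal. Regions were ranked by the mean value per kb over the 4 libraries and divided into deciles. In the lowest decile 21.8% of regions were higher in the second pair, with a median log2 difference of -1.36. In the highest decile 70.7% were, with a median of 0.52, and the change was gradual between them. Among regions of 500 to 1000 bp alone, the share ran from 21.8% in the lowest decile to 45.0% in the ninth and 41.5% in the highest, so within 1 width class it turned less far. With all widths together, second-pair and first-pair regions had medians of 1.42 and -1.57 in the lowest decile. In the highest decile these were 0.65 and -0.46. The lowest decile began at 105 per kb, the lowest mean listed. The part of the authors' selection in this gradient was not tested.

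Each library followed its pair. In the lowest decile the first-pair libraries had 166 and 146 per kb and the second-pair libraries 94.7 and 70.1, computed from the authors' deposited table. In the highest decile the order was reversed, with 287 and 272 against 440 and 383. The second pair therefore spanned a wider range of values between weak and strong regions than the first did. Regions of 5 kb and more held 13.1% and 13.9% of the summed values of the first-pair libraries and 19.96% and 20.5% of those of the second pair. Within pairs the libraries differed in these wide regions by a median of 0.21 on the log2 scale in either pair, and between pairs by 0.63 to 0.89. Regions were listed because the pairs differed, so a larger distance between pairs than within them follows from that choice. The contrast of signal between strong and weak regions moved with the pair, and its part in single differences was not tested.

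**Figure D2:**
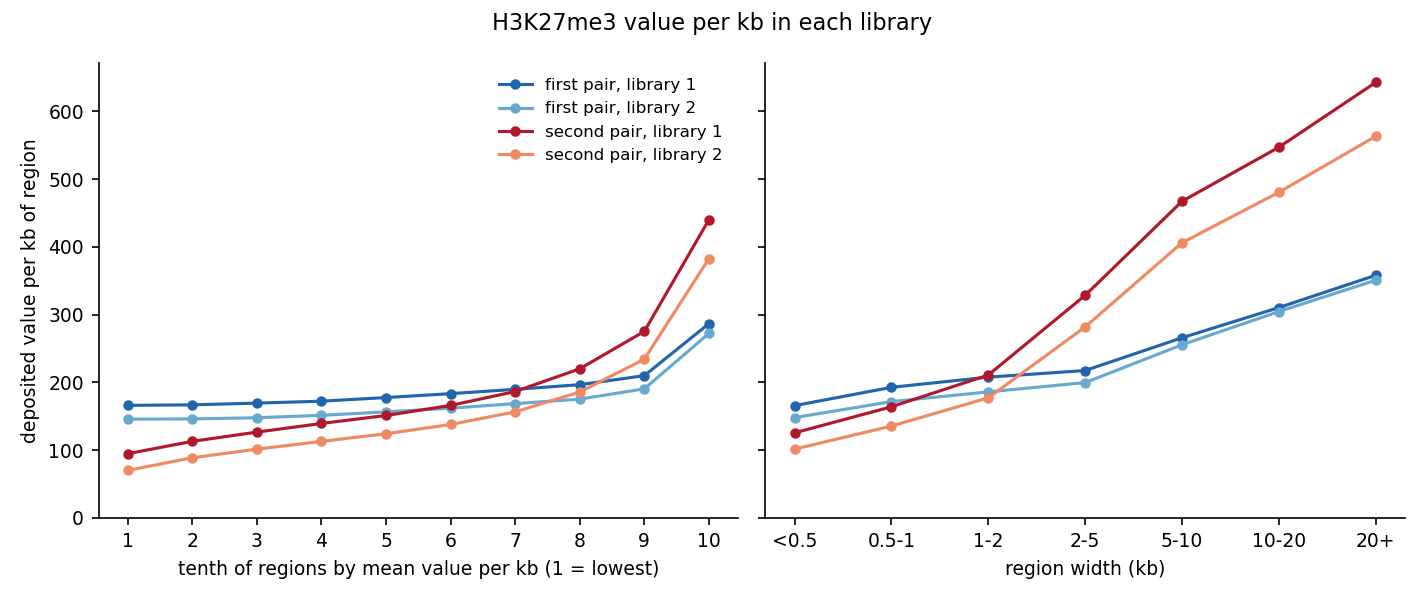
Value per kb of region (linear axis) of each of the 4 libraries, computed from the authors' deposited table, by decile of mean signal (left) and by region width in kb (right). The second-pair libraries lie below the first-pair libraries in the lowest decile and above them in the highest decile and in every width class from 2 kb up.

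Across all regions the libraries agreed less. Pearson's r of the log2 values across regions, which are not independent replicates and share their library, was 0.61 within the first pair, 0.73 within the second and 0.45 to 0.53 between pairs. In regions of 5 kb and more it was 0.91 and 0.97 within pairs and 0.93 between them. The listing of regions by a difference between pairs also acts on these values. Summed values were 124198535 and 112764904 in first-pair and 143213031 and 121358984 in second-pair libraries. Library 2 of the second pair had a value of 0 in 1.70% of regions, against 0.177% to 0.440% in the other 3. These sums cover listed regions only, and library depth is not stated, so no counting interval can be given.

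The limma test across all 552542 regions, on log2(value + 1) with Benjamini-Hochberg adjustment, called 0 regions (0%) at an adjusted p under 0.05. The smallest adjusted p was 0.106. At an unadjusted p under 0.05 limma had 18570 second-pair and 49295 first-pair regions. That balance turned to 38946 and 19944 without library 1 of the first pair, and was near even, at 52590 and 51094, with an intensity trend. Under the other settings of limma tried the calls were also 0, with smallest adjusted p-values from 0.0582 to 0.448. The calls below are therefore those of the authors' deposited table, whose largest p was 0.01, and a single region of 2 against 2 libraries cannot go below an exact permutation p of 1 in 3, two-sided. Whether the 2 libraries of a condition came from separate animals is not stated, so the spread between them may be technical.

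Wide second-pair regions stood close together. Joining second-pair regions across gaps of up to 1000 bp gave 152429 stretches, of which 140 reached 50 kb, while no first-pair stretch did. The longest, 282950 bp at Sez6l, a seizure-related membrane protein gene (chromosome 5, 112404101 to 112687050), joined 22 regions and had a log2 difference of 0.78. Summed over it, the authors' deposited table held 111056 and 109885 in first-pair and 201944 and 177912 in second-pair libraries, so the pairs were far apart. Another of 282250 bp on the same chromosome held Adra2c, Hmx1, a homeobox gene, and Cpz, and had a log2 difference of 0.76. Long stretches also lay at the netrin receptor gene Unc5a (0.79), the glutamate receptor genes Grik3 (0.81) and Grik4 (0.82), the complement genes C1qa, C1qb and C1qc together with Epha8 (0.78), the Hoxb cluster (0.59) and Lhx5 (0.75), a LIM-homeodomain gene. Genes at these stretches were named for the length, after the values were seen.

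Regions of opposite direction often touched. Of 101353 neighbouring regions with a gap of at most 100 bp, 77.1% had opposite directions. Whether the caller joined close neighbours of 1 direction is not stated. At wider gaps of up to 1000 bp 38.6% did. Around second-pair regions of 5 kb and more, first-pair regions covered 20.1% of positions in the first kb outside and 9.73% at 2 to 5 kb. Second-pair regions covered 32.9% and 64.4% of the same positions. First-pair regions were thus more frequent just outside these wide regions than further out, but second-pair regions covered more at both distances. A case below 5 kb is Cdkn1c, described below, whose second-pair region of 3700 bp lies 50 bp from a first-pair region.

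Genes were taken to have a region where one lay within 2500 bp of either end of the gene. Of 21887 protein-coding genes, 10182 (46.5%) had a second-pair region, 10279 (47.0%) a first-pair region and 2223 (10.2%) a second-pair region of 5 kb and more, while 8494 had none. Regions of both directions lay near 7068 genes (32.3%). Exons and introns were not told apart. Counts for gene groups below are to be read beside these shares. No enrichment was tested, and the groups were chosen with results of these data known. For a named gene with regions of both directions, the leading region of each is given, except where marked and for genes named for a start or a merged stretch. In a bulk preparation, more of the mark per cell and more cells that carry it cannot be told apart.

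Developmental transcription factors lay under wide second-pair regions. All 39 Hox genes, which specify position along the body axis, had a second-pair region of 5 kb and more, with a median widest region of 21500 bp, and 6 also had a first-pair region. The region over Hoxa3, Hoxa5, Hoxa6, Hoxa7, Hoxa9, Hoxa10 and Hoxa11 (chromosome 6, 52197251 to 52250950) was the third longest of the table, with 30387 and 31475 in the first-pair libraries and 50778 and 42748 in the second-pair ones by the authors' deposited table. Its log2 difference was 0.60. Hox regions carried strong signal in all libraries, with 530 and 538 per kb in first-pair and 854 and 760 in second-pair libraries, against 258 and 248 and 381 and 329 over regions near all genes. The median log2 difference of the leading second-pair region was 0.60 at Hox genes and 0.85 over all genes. At Hoxd10 and Hoxd11 a narrow region went the other way in the authors' deposited table, 622 and 763 against 579 and 526 (-0.33), and that at Hoxd1 (-0.29) had overlapping pairs and turned to 0.22 without second-pair library 2. The second-pair regions of Hoxd10 and Hoxd11 (0.55) and of Hoxd1 (0.63) were wider, at 12550 and 17100 bp.

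Of 40 other homeobox and paired box regulators, all had a second-pair region and 36 one of 5 kb and more. Six2, a regulator of nephron progenitors (chromosome 17, 85679901 to 85694700), had 7833 and 7800 in the first-pair libraries and 12623 and 13286 in the second-pair ones by the authors' deposited table (log2 difference 0.73). Pax3, a regulator of neural crest and muscle precursors, had 0.65 over 22250 bp, and -0.60 over a further 950 bp. A narrow region at Lhx9, a gonad and brain regulator, had 224 and 157 versus 70 and 79 (-1.34) by the authors' deposited table, beside a second-pair region of 5650 bp (0.41). Of the 40 genes 18 had a first-pair region, and 4 did at a deposited p of at most 1e-05. Pax8, a thyroid regulator, had one with overlapping pairs (-0.90) and a second-pair region of 7950 bp (0.81). The bHLH lineage factors had second-pair regions at 16 of 16 genes, 15 of them of 5 kb and more, and first-pair regions at 5. Neurog3, which specifies endocrine cells of the pancreas, had a log2 difference of 0.85, with overlapping pairs in a narrow first-pair region (-0.24, or 0.045 without second-pair library 2), and Olig1, an oligodendrocyte factor, had 0.65.

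T-box, GATA, Sox and Fox regulators had second-pair regions at 31 of 35 genes and first-pair regions at 15, and the 4 without any region were Gata1, Gata4, Gata6 and Tbx20. Foxc2, a regulator of vessel development shared in this window with Foxl1, had 7601 and 9882 versus 14922 and 13563 (0.70) by the authors' deposited table. Sox9, the cartilage regulator, had 0.68, Gata2, a haematopoietic regulator, 0.65 and Foxa2, an endoderm regulator, 0.60. Gata4, Gata6 and Tbx20, 3 of the 4 without a region, are cardiac transcription factors.

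Secreted developmental signals had second-pair regions nearly as often. Of 25 Wnt ligands and antagonists 24 had one, 12 had a first-pair region, and Wnt5b had no region in either direction. Wnt7b, which signals through the canonical pathway in lung and brain, had 5566 and 7700 versus 11177 and 11056 (0.74) by the authors' deposited table, and the region of Wnt10a, shared with Wnt6, had 0.68. Dkk2, a Wnt antagonist, had a second-pair region of 3750 bp (0.50) and a first-pair one with 536 and 413 versus 237 and 122 (-1.40) by the authors' deposited table. Of 28 BMP, TGF-beta, hedgehog and FGF genes 25 had one, among them Shh, a morphogen of limb and neural tube, with 5516 and 5569 versus 9007 and 8784 (0.68) by the authors' deposited table. Bmp4 had 1.11 and, in a first-pair region, -0.96, and Gdf10 had 0.87 and -0.70. Fgf15 had 0.76, and -0.37 in a region with overlapping pairs. First-pair regions were also frequent in the latter group, at 19 of 28 genes. At Inhba, which encodes the activin A subunit, a region of 550 bp had 115 and 127 versus 2 and 7 (-4.47) by the authors' deposited table, and at Tgfb3, a TGF-beta ligand, one of 500 bp had -3.27. Both also had second-pair regions, of 450 bp at Inhba (1.02) and 1250 bp at Tgfb3 (0.62). Tgfb1 and Tgfb2 had no region.

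The neuronal genes, not of the cardiomyocyte lineage, had a second-pair region at 26 of 26 and one of 5 kb and more at 15. Gad1, which makes the transmitter GABA, had 5901 and 7398 in the first-pair libraries and 10875 and 10524 in the second-pair ones by the authors' deposited table (log2 difference 0.69). Slc32a1, the vesicular transporter of GABA, had 0.87, and the region of Chat and Slc18a3, which make and load acetylcholine, 0.83. In these second-pair regions both second-pair libraries were above both first-pair libraries. First-pair regions lay near 16 of the 26, Gad1 (-0.62) and, with overlapping pairs, Chat (-0.44) among them. Th, which makes catecholamines, had 467 and 388 versus 269 and 172 (-0.95) in its first-pair region by the authors' deposited table, and 0.93 in a second-pair region of 4750 bp. Tubb3, neuronal tubulin, had 0.59 in one region and -0.59 in another, which it shares with Mc1r.

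**Figure D3:**
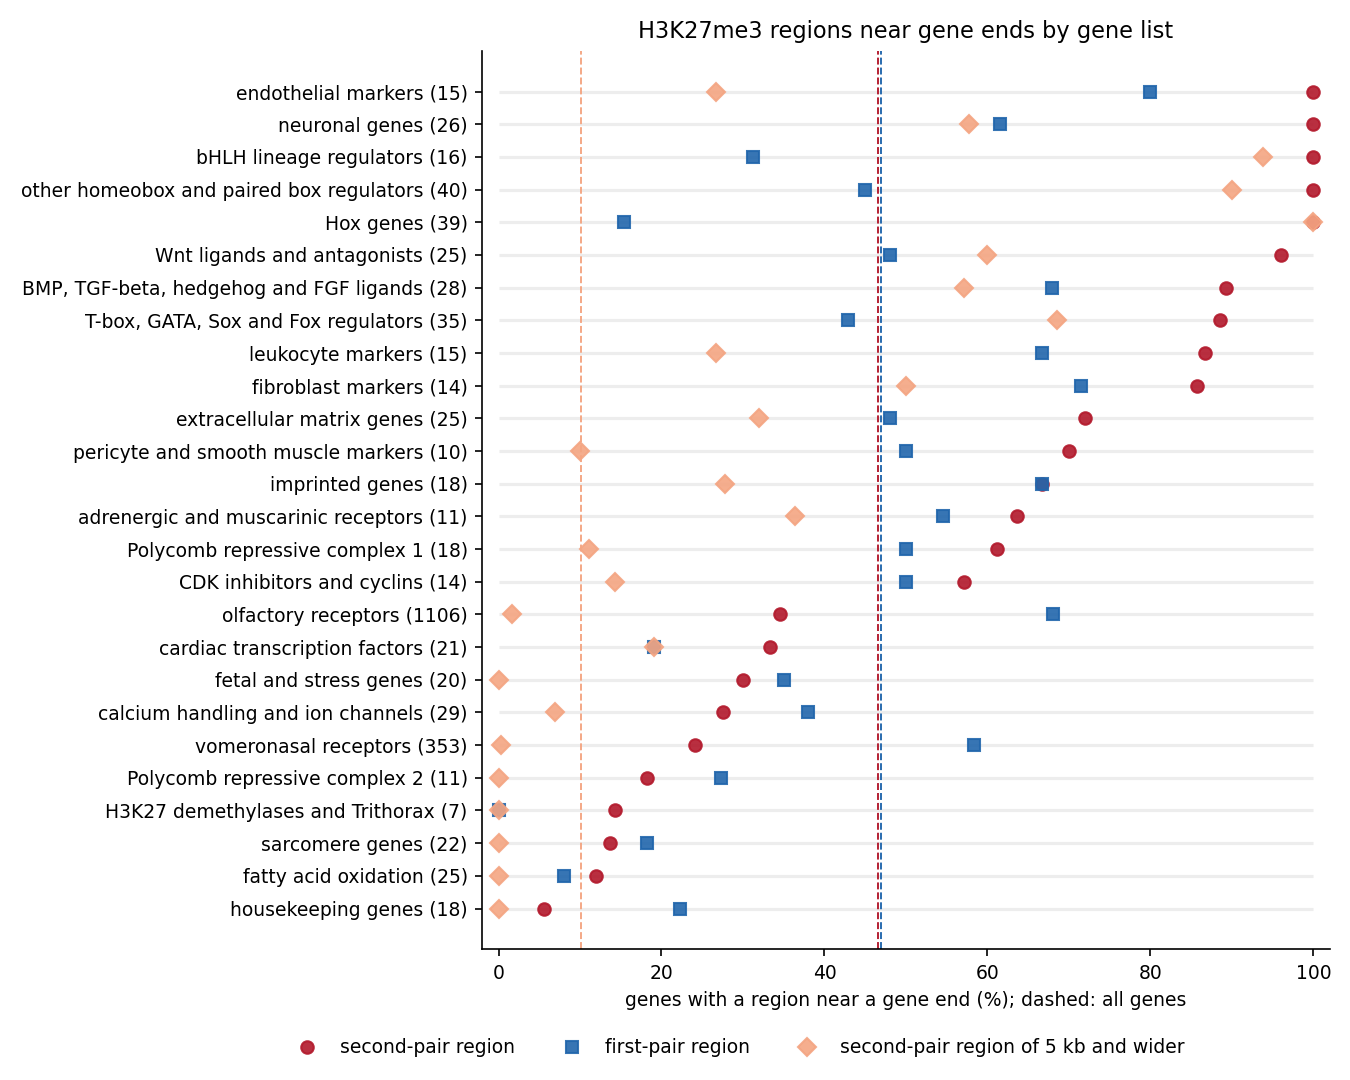
Percent of the genes of each list (number of genes in parentheses) with a second-pair region (red circles), a first-pair region (blue squares) or a second-pair region of 5 kb and wider (orange diamonds) within 2.5 kb of a gene end; dashed lines mark all protein-coding genes at 46.5%, 47.0% and 10.2%. Hox genes are at 100% for both second-pair measures, and fatty acid oxidation and housekeeping genes lie below the dashed lines in all 3 measures.

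Genes of the Polycomb machinery itself had regions of both directions. Of 11 genes of Polycomb repressive complex 2, the writer, 2 had a second-pair and 3 a first-pair region, and 7 had none: Ezh2, Eed, Suz12, Rbbp4, Rbbp7, Jarid2 and Phf1. Ezh1, the catalytic subunit typical of non-dividing cells, had a first-pair region of 500 bp at the end shared with Cntnap1, with 98 and 96 versus 37 and 17 (-1.81) by the authors' deposited table. Phf19, an accessory subunit, had 1 region each way (1.13 and -0.61). The regions of the accessory subunit genes Mtf2 (-1.04) and Aebp2 (0.40) had overlapping pairs, and each turned sign when a library was left out, Mtf2 to 0.19 (first-pair library 2 left out) and Aebp2 to -0.27 (first-pair library 1 left out).

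Polycomb repressive complex 1, the reader, carried second-pair regions at 11 of 18 genes and first-pair regions at 9, and 7 of these genes had both. The shares were 61.1%, 50% and 38.9%, against 46.5%, 47.0% and 32.3% of all genes. Those for first-pair regions and for both thus lay near the shares of all genes and are no result about this complex. The chromodomain subunits Cbx2 and Cbx8, which bind the mark, lie side by side on chromosome 11. Cbx8 (119041151 to 119050050) had 5382 and 4787 in the first-pair libraries and 7363 and 6668 in the second-pair ones by the authors' deposited table (log2 difference 0.46). Cbx2 (119018601 to 119022700) had 999 and 1049 versus 2000 and 1525 (0.78) by the authors' deposited table, and a further region at its other end had -0.66. Cbx7, the chromodomain subunit of stem cells, had 0.95 in a window shared with Apobec3 and -1.41 in a first-pair region of 800 bp. Pcgf1, a subunit of variant complexes, had 0.45 in a window shared with the homeobox gene Tlx2 and -1.79 in a first-pair region of 650 bp. Bmi1 had 1515 and 1352 versus 1583 and 1640 by the authors' deposited table (log2 difference 0.17). Rybp, a subunit of variant complexes, had 1 region each way (0.81 and -0.93), and the first-pair regions of Cbx6 and Phc2 had -3.97 and -0.99, the former with 1 second-pair library at 0. Phc2 also had a second-pair region with overlapping pairs (0.45). At Ring1, an E3 ligase subunit, a region of 550 bp had 92 and 125 versus 31 and 12 (-2.28) by the authors' deposited table, while Rnf2, its paralogue, had none. Phc1, whose start is shown above, had a second region of the opposite direction nearby (1.54).

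Of 7 demethylase and Trithorax genes, Kdm6b alone had a region. It lay in a window shared with Dnah2 (chromosome 11, 69420251 to 69422550), with 254 and 199 versus 699 and 407 by the authors' deposited table (log2 difference 1.28). Kdm6a, Uty, Kmt2a, Kmt2b, Kmt2c and Kmt2d had none in this table.

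Cell cycle inhibitors are classical Polycomb targets. Of 14 inhibitor and cyclin genes, 8 had a second-pair region and 7 a first-pair region. The Cdkn2a locus, which encodes p16 and p19, had 3589 and 3700 versus 4894 and 4469 (0.36) by the authors' deposited table over 6000 bp, and -0.50 over a further 650 bp. The neighbouring Cdkn2b, encoding p15, had 2434 and 2686 versus 4252 and 3550 (0.61) by the authors' deposited table. Cdkn1c, an imprinted inhibitor encoding p57 (chromosome 7, 143458651 to 143462350), had 878 and 1055 versus 1998 and 1795 (0.97) by the authors' deposited table. The adjoining 1100 bp of Cdkn1c (143457501 to 143458600) went the other way, with 264 and 260 versus 112 and 132 (-1.10) by the authors' deposited table. In both of these regions the pairs were apart, so the direction turned over a short distance. Among the cyclins, Ccnb1 (2.01), Ccnd1 (1.53) and Ccna1 (1.25) had the highest second-pair differences, in regions of 1250 to 2150 bp. Each also had a narrow first-pair region, with -0.99 at Ccnb1 and, with overlapping pairs, -0.90 at Ccnd1 and -1.09 at Ccna1. Ccnd2, a cyclin of the G1 phase, had 130 and 144 versus 264 and 282 (0.99) by the authors' deposited table, and a first-pair region with -0.65. In the region of Ccne1 (-1.42) the pairs met at the same value of 73 in the authors' deposited table. Cdkn1a, Cdkn1b, Cdkn2c, Cdkn2d and Ccnd3 had no region.

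Most cardiac transcription factors had no listed region, and 4 of 21 had a second-pair region of 5 kb and more. The 13 without any were Nkx2-5, Gata4, Gata6, Tbx20, Mef2a, Mef2c, Mef2d, Hand2, Myocd, Irx4, Prox1, Hopx and Foxp1. Isl1, a regulator of cardiac progenitors, had the region shown above. Hand1, a left ventricular factor of the embryo (chromosome 11, 57827901 to 57838700), had 4114 and 5528 versus 7788 and 6327 (0.55) by the authors' deposited table. Irx5, which patterns repolarisation in the ventricle (chromosome 8, 92357851 to 92369350), had 3537 and 3464 versus 5783 and 5598 (0.70) by the authors' deposited table. Nr2f2, an atrial and venous factor, had 0.41 over 7050 bp, with a narrower region of -0.50 nearby. Tbx5, a factor of the left ventricle and atria, had 359 and 409 versus 780 and 574 (0.82) by the authors' deposited table, and a region of 450 bp elsewhere at the gene had -1.65. Srf, a regulator of the contractile genes, had only a first-pair region, with 111 and 150 versus 33 and 34 (-1.93) by the authors' deposited table. At Irx3 (0.92) and in the second-pair region of Esrrg (1.20), an oestrogen-related receptor, the pairs overlapped. The first-pair region of Esrrg had -2.38.

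Genes active in cardiomyocytes were mostly without a region. Of 22 sarcomere genes 17 had none, among them Myh6, Myh7, Myl2, Myl3, Actc1, Tnnt2, Tnni3, Tnnc1, Mybpc3, Ttn and Actn2, the markers of the labelled cell type. These markers being without a listed difference says nothing of whether the mark is present there. Second-pair regions lay at 3 of the 22 and first-pair regions at 4. Tnni1, the slow skeletal troponin I of the fetal heart (chromosome 1, 135778901 to 135783750), had 1243 and 929 versus 2050 and 1908 (0.87) by the authors' deposited table. Acta1, skeletal actin, had 115 and 121 versus 380 and 231 (1.36) in a window shared with Nup133 by the authors' deposited table. Tnni1 and Acta1 each also had a narrower first-pair region (-0.92 and -0.77), with the pairs apart. Nebl, a Z-disc protein gene, had 192 and 145 versus 65 and 9 (-2.16) by the authors' deposited table, and Myl4, an atrial light chain, had -2.33. A start of Nebl in the promoter table lay under a second-pair region, outside the windows at its gene ends.

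Of 20 fetal and stress genes 6 had a second-pair and 7 a first-pair region, and 12 had none, among them Nppa, Nppb, Ankrd1 and Xirp2. Postn, periostin of activated fibroblasts, had 192 and 217 versus 444 and 401 (1.04) by the authors' deposited table, and Spp1, osteopontin, had -0.88. In the other direction, Postn (-0.59, or 0.51 without first-pair library 2) and Spp1 (0.45) had regions with overlapping pairs. Of 25 fatty acid oxidation genes 3 had a second-pair and 2 a first-pair region, and 21 had none. Ppargc1a, the PGC-1 alpha coactivator of mitochondrial genes (chromosome 5, 52112451 to 52115600), had its second-pair region (1.55) near the gene end away from the start shown in the promoter table, at whose position no region lay. Rxra, the retinoid receptor that partners PPAR, had 1361 and 1622 versus 2686 and 2779 (0.87) by the authors' deposited table, while Ppargc1b, Ppara and Esrra had none. Acads and Acadvl, acyl-CoA dehydrogenase genes, had narrow first-pair regions (-2.85 and -2.15), and in that of Acads 1 of the first-pair values, 17, lay just above the second-pair values of 10 and 15 in the authors' deposited table. Acadvl, in a window shared with Dlg4, also had a second-pair region of 650 bp (0.93).

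Among 29 calcium handling and ion channel genes, 8 had a second-pair region, 11 a first-pair region and 16 none. Kcna5, the atrial ultrarapid potassium channel (chromosome 6, 126525601 to 126536100), had 2722 and 3118 versus 5152 and 4958 (0.79) by the authors' deposited table. Sln, sarcolipin, an atrial inhibitor of the calcium pump, had 2986 and 3136 versus 5379 and 4202 (0.65) by the authors' deposited table. Cacna1h, a T-type calcium channel, had 0.88 in a window shared with Tpsb2 and Tpsg1. Narrower first-pair regions lay at Kcna5 (-0.28), Cacna1h (-0.51) and, with overlapping pairs, Sln (-0.62, or 0.039 without second-pair library 2). The pacemaker channel genes Hcn2 and Hcn4 had first-pair regions (-1.93 and -1.12), as had Itpr2 (-2.63), an intracellular calcium release channel. Hcn4 also had a second-pair region with overlapping pairs (1.08). Ryr2, Atp2a2, Pln, Casq2 and Slc8a1, which cycle calcium in each beat, had no region.

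Of 11 receptors for autonomic input 7 had a second-pair and 6 a first-pair region. The alpha2 genes Adra2a, Adra2b and Adra2c and the beta3 gene Adrb3 had second-pair regions of 8400 to 16150 bp. Adra2c (chromosome 5, 35274151 to 35284800) had 3799 and 3371 versus 6398 and 5551 (0.74) by the authors' deposited table, while Adra2a and Adrb3 had 0.47 and 0.63. Adra2a (-0.24) and Adrb3 (-0.79) also had first-pair regions, in which the pairs overlapped. Adra1a, an alpha1 receptor of cardiomyocytes, had a first-pair region with 523 and 239 versus 182 and 38 (-1.78) by the authors' deposited table. First-pair regions at Adra1d and Chrm3, an alpha1 and a muscarinic receptor, had -1.54 and -0.78. Adra1d also had a second-pair region with overlapping pairs (0.41) and Chrm3 one of 2900 bp with the pairs apart (0.50). Adrb1 and Chrm2, the main beta receptor and muscarinic receptor of the heart, had none, nor had Adra1b.

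**Figure D4:**
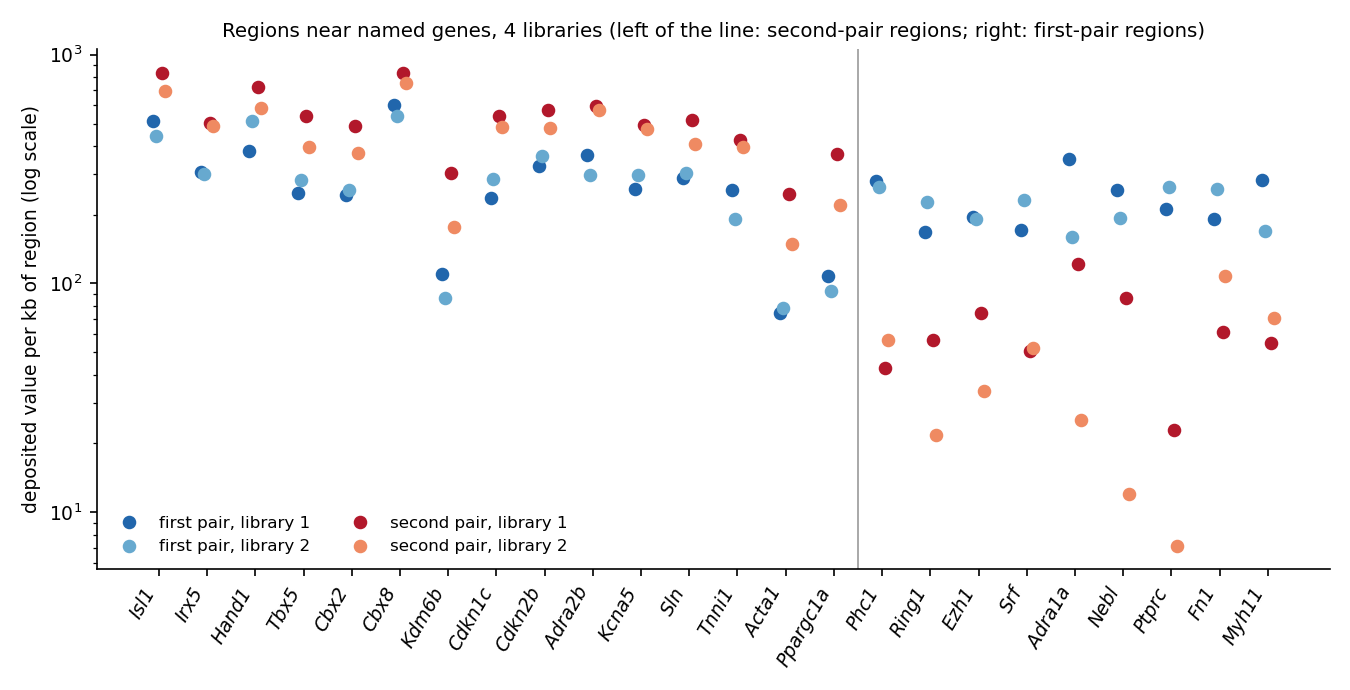
Value per kb of region (log axis), computed from the authors' deposited table, in each of the 4 libraries for the leading second-pair regions of 15 named genes (left of the line) and first-pair regions of 9 (right). In each region shown both libraries of the higher pair lie above both of the other, and the lowest point is library 2 of the second pair at Ptprc.

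Genes of the other heart cell types, not typical of cardiomyocytes, had regions of both directions. All 15 endothelial markers had a second-pair region and 12 a first-pair region. Sox17 (0.56), an arterial regulator, Cdh5 (0.88), the endothelial cadherin, and Sox18 (0.91), a vascular regulator, had second-pair regions of 4550 to 5450 bp. Their first-pair regions had -0.32 at Sox17, -1.11 at Sox18 and, with overlapping pairs, -0.61 at Cdh5. Kdr, the VEGF receptor, had 319 and 521 versus 122 and 227 (-1.26) in its first-pair region by the authors' deposited table, and 0.47 in a second-pair region of 4850 bp. Of 9 endothelial genes with a start in the promoter table, 5 had a start under a first-pair region, Emcn, Eng, Tek, Erg and Egfl7, against 5.64% of 17492 genes. The start of 3, Kdr, Robo4 and Tie1, lay under a second-pair region, against 22.0% of all genes. Those 8 were named after their values were seen, and the former 5 all had a second-pair region near a gene end as well.

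Second-pair regions lay at 12 of 14 fibroblast markers, 7 of 5 kb and more, and first-pair regions at 10. Of 10 pericyte and smooth muscle markers 7 had a second-pair and 5 a first-pair region. Meox1, a homeobox gene of activated fibroblasts, had 2864 and 3024 versus 5005 and 4219 (0.65) by the authors' deposited table, and Thy1 0.63, Pdgfra 0.46 and Col1a1 0.49 over 8000 to 9950 bp. In first-pair regions of Thy1 (-0.54, or 0.48 without first-pair library 2) and Pdgfra (-0.88) the pairs overlapped. Col1a2, the partner chain of Col1a1, had a second-pair region of 4000 bp with 766 and 676 versus 1467 and 1304 (0.94) by the authors' deposited table. It also had a first-pair region of 750 bp with 163 and 162 versus 61 and 10 (-2.16) by the authors' deposited table. Ddr2, a collagen receptor, had 1.09 in one region and -1.63 in another. Fap, a fibroblast surface protease, had 1.64 and, with overlapping pairs, -1.23. Rgs5, a pericyte gene, had 0.91 and -0.83, and Notch3, a receptor of mural cells, 0.39. The smooth muscle genes Myh11 and Cnn1 had first-pair regions (-1.85 and -1.89). Cnn1 also had a second-pair region of 1550 bp (0.36), and Acta2, smooth muscle actin, had only a second-pair region, with 36 and 21 versus 146 and 62 (1.83) by the authors' deposited table.

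Leukocyte markers had second-pair regions at 13 of 15 genes and first-pair regions at 10, and 9 had both. The complement genes C1qa, C1qb and C1qc shared 1 region (chromosome 4, 136886251 to 136899400) with 4989 and 3959 versus 8696 and 7122 (0.82) by the authors' deposited table. The neutrophil gene S100a8 had 0.68. At Ptprc, the pan-leukocyte antigen CD45, a region of 700 bp had 148 and 185 versus 16 and 5 (-3.86) by the authors' deposited table. Itgam and Lyz2, myeloid genes, had first-pair regions (-2.39 and -1.18) and second-pair regions (2.14 and 1.06), that of Lyz2 shared with Lyz1. Over their listed regions the leukocyte genes had 282 and 253 per kb in first-pair and 434 and 363 in second-pair libraries, and the endothelial genes 285 and 281 against 425 and 371. The share of these cell types in the 4 libraries and its part in the differences were not tested.

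Of 25 extracellular matrix genes, 18 had a second-pair region, 12 a first-pair region and 11 both. Col5a1, a fibrillar collagen (chromosome 2, 27881401 to 27899850), had 4720 and 5439 versus 9589 and 8061 (0.80) by the authors' deposited table, and -0.77 in a first-pair region of 550 bp. Mmp9, a gelatinase, had 1435 and 1612 versus 3334 and 2930 (1.04) by the authors' deposited table, and Col6a3 had 1.02. Fn1, fibronectin, had a second-pair region of 4900 bp with 1115 and 1324 versus 2433 and 2132 (0.90) by the authors' deposited table. Its leading first-pair region of 1500 bp had 286 and 389 versus 92 and 161 (-1.41) by the authors' deposited table. Mmp14, a membrane-bound protease, had 1 region each way (0.81 and -0.93). The basement membrane collagens Col4a1 and Col4a2 had no region.

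Imprinted genes had each direction at 12 of 18. Dlk1, a paternally expressed Notch-like factor, had 8478 and 9787 versus 15176 and 12258 (0.59) by the authors' deposited table, over 22150 bp. Igf2, the fetal growth factor, had 0.56. Plagl1, an imprinted zinc finger gene, had 166 and 148 versus 597 and 560 (1.87) by the authors' deposited table, and a first-pair region in which the pairs overlapped (-1.03). Peg3, another imprinted zinc finger gene whose window it shares with Usp29, had 1365 and 1147 versus 1048 and 779 (-0.46) by the authors' deposited table, in 1 of the longest first-pair regions near a gene end. Snrpn, of the Prader-Willi cluster, had -1.05.

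Chemosensory receptor genes had first-pair regions more often than second-pair ones. Of 1106 olfactory receptor genes 752 had a first-pair region and 382 a second-pair region, and of 353 vomeronasal receptor genes 206 and 85 did. Second-pair regions of 5 kb and more lay near 18 and 1 of them. Signal was low there, with 202 and 176 per kb in first-pair and 207 and 168 in second-pair libraries over olfactory receptor regions. Neighbouring receptor genes share regions. At Vmn2r5 a region of 1100 bp had 283 and 310 versus 47 and 11 (-3.31) by the authors' deposited table. Of 18 housekeeping genes, 14 had no region. Eef1a1, the translation elongation factor, had a region each way (0.43 and -0.51), and Tfrc, the transferrin receptor, had -1.37. Gusb, beta-glucuronidase, had 161 and 103 versus 2 and 4 (-5.06) in a first-pair region of 550 bp by the authors' deposited table.

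The strongest fold differences lay in narrow regions. Among non-overlapping second-pair regions of 1 kb and more that lay near no more than 3 genes, the largest were at Muc13, a transmembrane mucin gene, with 13 and 43 versus 326 and 211 (3.22) by the authors' deposited table, Uri1 (3.04), a prefoldin-like gene, Fut4 (2.87), a fucosyltransferase gene, Adgrg1 (2.68), an adhesion receptor gene, and Ptgr1 (2.63). Among first-pair regions the largest was at Fnbp1l, an actin regulator gene, with 196 and 326 versus 23 and 0 (-4.39) by the authors' deposited table. Tbc1d31 (-4.21), Zfp788 (-3.93), Defa30 (-3.42) and Exosc4 (-3.32) followed, with only the ranked region given. Vmn2r5, described above, and Svs2, a seminal vesicle protein gene, came next, both at -3.31. Stx11, a syntaxin gene of cytotoxic lymphocytes, had 365 and 396 versus 20 and 65 (-3.13) by the authors' deposited table. These regions of 1000 to 1800 bp had values far below those of the domains. The longest second-pair regions that lay near no more than 3 genes were at Sez6l with 62300 bp (0.86), Tlx1 with 36850 bp (0.60), a spleen homeobox gene, and Hmx1 with 35800 bp (0.72).

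First-pair regions of 5 kb and more were 26. The longest, 12450 bp, overlapped Zfp978 on chromosome 4 (147255651 to 147268100) and had 4477 and 4031 in the first-pair libraries and 2786 and 1666 in the second-pair ones by the authors' deposited table (log2 difference -0.93). Zfp992 and Zfp982, zinc finger genes of the same chromosome, had -1.12 and -0.54 over 8250 and 4900 bp. Gm8369 had -1.07 over 5650 bp, and Nedd9, a focal adhesion scaffold gene, -0.49 over 4400 bp. In all these examples both first-pair libraries exceeded both second-pair libraries.

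Gene starts were placed with the strand of the RefSeq promoter table, which held 21263 starts of 17492 protein-coding genes. A second-pair region covered 4453 starts (20.9%) and a first-pair region 1051 (4.94%). The regions over starts had median widths of 3050 and 950 bp, and a wider region covers a given base more readily. These shares of starts are not comparable with the shares of genes near an end, which used a window. The share under a second-pair region was highest, at 31.0%, where the ratio of observed to expected CpG was 0.2 to 0.4, and 8.39% where it was over 1. The share under a first-pair region fell from 8.68% at a ratio up to 0.2 to 1.05% above 1. The median ratio was 0.27 at starts under first-pair regions, 0.41 under second-pair regions, 0.53 under second-pair regions of 5 kb and more and 0.65 at starts under neither. Hox starts stood at 0.63 and all 22 Hox genes with a start in the table had it under a second-pair region. In the 250-base windows before all 21263 starts, the median number of CG was 3 under first-pair and 7 under second-pair regions. It was 10 under second-pair regions of 5 kb and more, 11 at starts in no region and 10 over all starts.

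Around CpG-rich starts, those with a ratio of 0.6 and more, first-pair regions thinned out. They covered 7.82% of positions 10 kb upstream and 2.24% at the start, and 4.18% of those 10 kb downstream. Second-pair regions covered 16.04% at 10 kb upstream, 14.3% at the start and 9.98% at 10 kb downstream. At CpG-poor starts second-pair regions were most frequent at the start, with 27% against 17.0% at 10 kb upstream and 16.9% at 10 kb downstream. First-pair regions there changed less, from 10.5% upstream to 7.41% at the start. CpG-rich starts include those of most active genes, and no separation by activity was made.

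**Figure D5:**
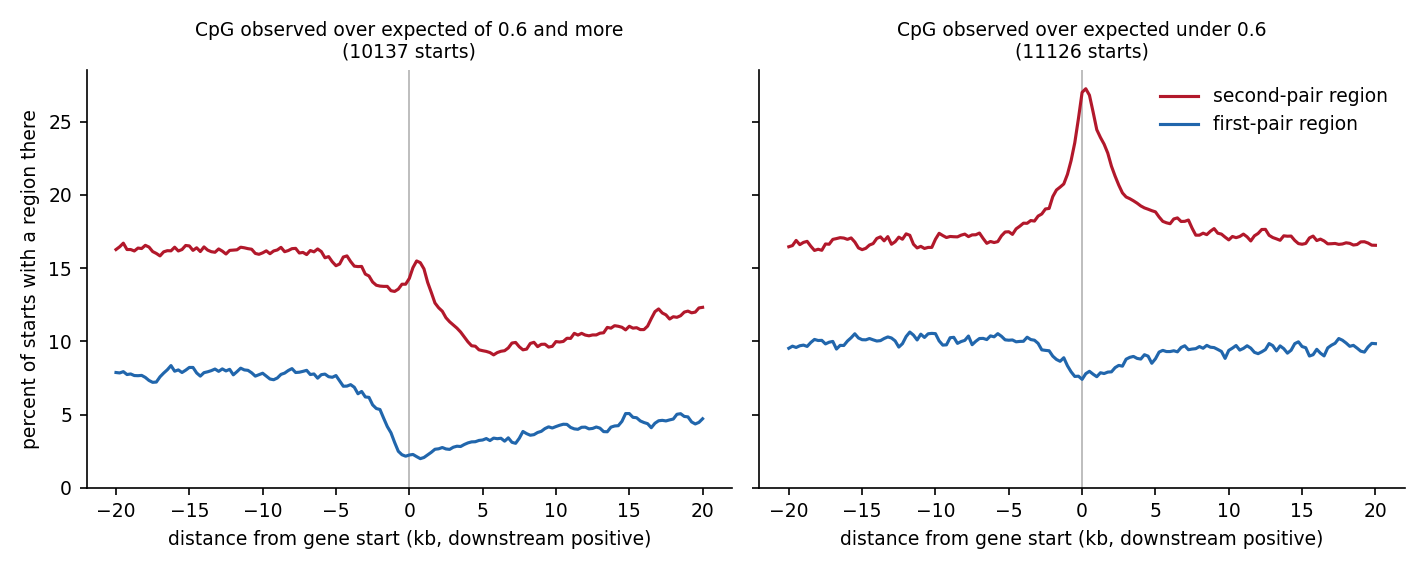
Percent of gene starts with a second-pair region (red) or a first-pair region (blue) at each distance from the start in kb, for 10137 CpG-rich starts (left) and 11126 CpG-poor starts (right). Blue drops to 2.24% at CpG-rich starts, and red peaks at CpG-poor starts at 27%.

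Some microRNA genes lie within clusters of developmental genes. Of 1005 hairpins of the RefSeq table, 211 (21.0%) lay in a second-pair region, 78 of these in one of 5 kb and more, and 54 (5.37%) in a first-pair region. These shares are near those of gene starts, 20.9% and 4.94%, and are no result about microRNA genes. The mature sequences of 8 are shown, 5′ to 3′ from RefSeq on GRCm38.p6 with the seed (bases 2 to 8) in capitals, because they group the loci by shared seed. They were picked after the values were seen.
miR-9-5p: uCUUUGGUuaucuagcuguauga
miR-10a-5p: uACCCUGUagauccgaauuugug
miR-10b-5p: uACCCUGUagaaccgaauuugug
miR-196a-5p: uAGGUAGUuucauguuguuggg
miR-196b-5p: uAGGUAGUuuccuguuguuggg
miR-96-5p: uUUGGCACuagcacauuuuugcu
miR-182-5p: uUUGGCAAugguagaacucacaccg
miR-183-5p: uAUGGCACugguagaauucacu
All 3 genes for miR-9-5p, the brain microRNA, lay in second-pair regions of 5 kb and more. Mir9-3 (chromosome 7, 79505264 to 79505353) lay in a region with 8718 and 10756 in both first-pair libraries and 18698 and 16074 in the second-pair ones by the authors' deposited table (log2 difference 0.84), while Mir9-1 had 0.72 and Mir9-2 0.60. Mir10a and Mir10b, which share the seed ACCCUGU, lie in the Hoxb and Hoxd clusters, in regions with 0.60 and 0.64. Mir196a-1, Mir196a-2 and Mir196b, which share AGGUAGU and also lie in Hox clusters, had 0.50, 0.79 and 0.60. Mir196b lies in the Hoxa region given above, so its value is no further measurement. Mir96, Mir182 and Mir183 are 1 sensory cluster in 1 region (chromosome 6, 30164951 to 30171900), with 1889 and 2245 versus 4012 and 2734 (0.71) by the authors' deposited table, and their seeds differ. In each of these regions both second-pair libraries exceeded both first-pair libraries. Of the muscle microRNAs in the table, Mir206 of skeletal muscle lay in a second-pair region of 750 bp with 57 and 17 versus 141 and 153 (1.96) by the authors' deposited table, and Mir133b, Mir208a, Mir208b and Mir499 in none.

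The H3K27me3 regions were set beside those of the other antibodies, each of which compares its own libraries, with an overlap of at least 1 bp. Of second-pair H3K27me3 regions 30.8% overlapped a second-pair G9a region and 20.2% a first-pair G9a region. Of second-pair G9a regions 52.3% overlapped a second-pair and 23.2% a first-pair H3K27me3 region. Of first-pair H3K27me3 regions 17.6% overlapped a first-pair G9a region and 12.4% a second-pair G9a region. Of first-pair G9a regions 26.1% overlapped a first-pair and 23.4% a second-pair H3K27me3 region. Among the 7221 second-pair regions of 5 kb and more, 92.9% overlapped a second-pair G9a region and 57.4% a first-pair one, and a long region meets another list more readily than a short one. By sequence, second-pair G9a regions covered 42.7% of these wide regions and first-pair ones 7.36%. Of all second-pair H3K27me3 regions 12.6% overlapped a second-pair and 12.8% a first-pair H3K9me2 region, and of those of 5 kb and more 30.2% and 37.2% did. The order of the pairs was assumed to be the same in the 3 tables, which the sources used here do not state.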

How the data were processed

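H3K27me3 was measured by chromatin immunoprecipitation and sequencing in 2 sham and 2 TAC libraries. Per the submitters' processing notes, BWA 0.7.10-r789, SAMtools 1.1 and mm10 were used; a NuGEN Ovation Ultralow V2 kit made the libraries, per the labels' protocols. Caller, scaling and input correction: not given in the sources used here. What the authors deposited was 1 line per region with 4 whole-number values and a -log10 p; whether these values are raw is not stated, so no count model was used. The lowest mean deposited value was 105 per kb and the smallest width 350 bp. 2 lines on mitochondrial DNA stayed out, and 0 columns of per-sample values went unused.

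Log2 differences used a pseudocount of 1. Regions were joined to genes of GRCm38.p6 within 2500 bp of either gene end. limma 3.58.1 (R 4.3.3) was tested on simulated data. pandas 2.3.3 and numpy 2.4.6 were used under Python 3.11.15. Named genes were, per direction, the 8 regions near gene ends with the smallest deposited p, the 8 with the largest difference, the 5 longest, up to 4 members of each gene list, and all members of the Polycomb, demethylase, cell cycle, cardiac factor and PGC-1 groups; their region of the other direction is given too, and other exceptions are marked. Some results are not reported here. Members, lists and rules were chosen with earlier results of these data known. The alternatives were other limits on p, library scaling, pseudocounts, windows and leaving out each library.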

Additional observations from a re-analysis of the deposited data

Results flagged for a closer look

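The authors' deposited table for H3K27me3 also held 2 lines on mitochondrial DNA, which carries no histones and was outside all comparisons. One had 0 and 0 in the first-pair libraries and 14959 and 8621 in the second-pair ones by the authors' deposited table, so no fold is given, and the other had 2944 and 2468 against 16257 and 14290. Both were higher in both libraries of the second pair. They stand out because signal appears in data that the comparisons do not use.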

How the results depend on the processing

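The share of regions higher in the second pair, 42.7%, was 43.6% at a deposited p of at most 1e-05, 37.7% after joining same-direction regions across 1000 bp and 53.5% among regions at or above the median value per kb. Leaving out 1 library at a time gave 40.8% to 46.8%. Without 1 library the lowest decile of signal ran from 21.2% to 27.1% and the highest from 68.3% to 73.3%. The share in regions of 5 kb and more, an alternative chosen after seeing the data, was 99.6% each time. Pairs did not overlap in 99.3% of those wide regions, and there leaving out 1 library cannot change the direction. That constant share is therefore no check of the split by width. Pairs did not overlap in 71.0% of regions after scaling to equal totals and in 84.1% at the stricter p. A window of 1000 bp left 6407 genes with a first-pair region, against 10279. At a deposited p of at most 1e-05, 6990 genes kept a first-pair and 8856 a second-pair region. First-pair regions then lay at 0 of 39 Hox genes, 4 of 40 other homeobox and paired box regulators and 0 of 16 bHLH factors. They lay at 7 of 35 T-box, GATA, Sox and Fox regulators. Second-pair regions lay at 39, 40, 15 and 31 genes of these groups. With at least 50% of the region covered, overlap with second-pair G9a regions was 15.9% and with H3K9me2 5.51%. Scaling to equal totals shifted log2 differences by a median of -0.16, which takes the median of all regions from -0.58 to -0.74. Leaving out 1 library moved that median to between -0.53 and -0.17, the latter without first-pair library 1, and to -0.26 without second-pair library 2. limma called 0 regions in each setting; at an unadjusted p under 0.05, second-pair and first-pair regions numbered 12922 and 73804 after scaling, 52590 and 51094 with an intensity trend, 23510 and 61607 with a pseudocount of 10, and 18188 and 16799 at or above the median per kb. Without 1 library they numbered 38946 and 19944 (first-pair library 1), 27722 and 26211 (first-pair library 2), 4820 and 83653 (second-pair library 1) and 7407 and 38652 (second-pair library 2). For 197 of the single regions printed above, tried under 6 settings chosen after seeing the data, 7 of 1182 values changed sign. Leaving out 1 library cannot change the sign of a region whose pairs do not overlap. The low number of sign changes was thus largely fixed in advance and is no measure of stability. A further 259 moved by more than the region's within-pair spread, and 916 stayed within it. That spread is the standard deviation of the 2 log2 values of a pair, averaged over both pairs. Leaving out 1 library, the log2 difference ran from -1.70 to 0.19 at Mtf2 (0.19 without first-pair library 2), from -0.27 to 1.73 at Aebp2 (-0.27 without first-pair library 1) and from -1.08 to 0.22 at Hoxd1 (0.22 without second-pair library 2). In first-pair regions it ran from -0.60 to 0.045 at Neurog3 and from -1.86 to 0.039 at Sln, both positive without second-pair library 2. It ran from -1.25 to 0.51 at Postn and from -1.13 to 0.48 at Thy1, both positive without first-pair library 2. No paired analysis was possible because the value columns carry no replicate numbers. Library depth is not stated, so what it limits cannot be given.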

Other observations

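The X chromosome held 5040 listed regions, 30.2 per Mb of the span between its outermost regions, against 215 to 242 per Mb on the autosomes, and 35.6% of them were higher in the second pair. Chromosome Y held 100. Among autosomes the share higher in the second pair ran from 36.5% on chromosome 3 to 50.3% on chromosome 11, where the Hoxb cluster, Cbx2 and Cbx8 lie. The sources used here do not state the animals' sex. Few regions on X were not particular to H3K27me3. For G9a it held 803, against 9989 to 29463 per autosome, and for H3K9me2 1173, against 5773 to 20666.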
